A study of Mus musculus with 12 samples.

Results

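The G1 control genes read here are the cyclin-dependent kinase (CDK) inhibitors of the INK4 family (Cdkn2a, Cdkn2b, Cdkn2c and Cdkn2d), the Cip/Kip inhibitors Cdkn1b and Cdkn1c, the D-type cyclins Ccnd1, Ccnd2 and Ccnd3, and the kinase Cdk4. They are 10 of the 19212 genes in the table, listed by name with earlier results of these data known; they were selected on their summed read counts in OTUB1_KD against NC and in SFD@M against Blank. In G1, D-type cyclins bind CDK4 and CDK6, and the complexes phosphorylate the retinoblastoma protein RB, which releases E2F transcription factors and commits a cell to DNA replication. INK4 proteins bind the kinases and displace the cyclins, whereas Cip/Kip proteins bind cyclin-CDK complexes and block CDK2. The Cdkn2a and Cdkn2b genes lie side by side, are silenced by Polycomb proteins in many young tissues, and are among the loci most often lost or silenced in tumours and in tumour cell lines.

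Poly(A) RNA from 12 mouse lung cancer samples was sequenced, 3 in each of 4 groups. OTUB1_KD and NC were orthotopic lung tumours raised from LLC cells, a Lewis lung carcinoma line of mouse, that carried a lentivirus for knockdown of the deubiquitinase gene Otub1 or a negative control lentivirus. SFD@M and Blank were lung tumour samples from mice given SFD@M, an agent the labels do not describe further, or physiological saline. LLC cells are the starting cells of the model in all 4 groups, the genotype label reads WT in NC, SFD@M and Blank, and the labels give neither age nor strain nor whether the 3 libraries of a group are from separate animals, so every p-value here measures only the spread between these samples.

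Otub1 itself stood at 58.6, 49.3 and 71.2 CPM (counts scaled to the library total) in the OTUB1_KD libraries and at 76.2, 73.9 and 69.8 CPM in the NC libraries. The groups overlapped and the difference did not pass (log2 fold change -0.36 ± 0.18 (SE), adjusted p = 0.112, edgeR), so OTUB1_KD is used below as the label of these libraries. Otub1 had 47.3, 45.5 and 48.1 CPM in SFD@M and 78.0, 73.3 and 73.5 CPM in Blank, lower in SFD@M (log2 fold change -0.71 ± 0.05, adjusted p = 5.8e-06, edgeR). Titles of the Blank libraries carry a code that starts with KD, but their Otub1 level overlapped that of NC (0.03 ± 0.04, adjusted p = 0.468, edgeR). Library totals were 16062806 to 18028828 counts. The libraries also differed in make-up in a way the labels do not mention. Summed markers of alveolar epithelium (8 genes) were 10715 to 26297 CPM in OTUB1_KD and 71.2 to 79.2 CPM in NC, and 24353 to 26477 CPM in SFD@M and 64.4 to 67.5 CPM in Blank. Leukocyte markers (10 genes) were 3397 to 8775 CPM in OTUB1_KD and 5.27 to 5.88 CPM in NC, and 5172 to 5809 CPM in SFD@M and 2.97 to 3.54 CPM in Blank. Cd3e had 0 counts in NC and Blank, as did Sftpd. Most of the alveolar sum in NC and Blank came from Rtkn2, with 94.7 to 196 CPM in OTUB1_KD and 55.9 to 62.2 CPM in NC, and 194 to 252 CPM in SFD@M and 52.8 to 56.1 CPM in Blank, and from Hopx, with means of 441 CPM in OTUB1_KD and 15.5 CPM in NC, and of 666 CPM in SFD@M and 9.88 CPM in Blank. The surfactant genes, Lamp3 and Ager stood at 1.57 CPM or less in every NC and Blank library. Markers of dividing cells (8 genes) ran the other way, with 312 to 1121 CPM in OTUB1_KD and 3029 to 3121 CPM in NC, and 121 to 198 CPM in SFD@M and 3302 to 3368 CPM in Blank. Markers of fibroblasts and mural cells (8 genes) differed less than alveolar and leukocyte markers. Their sum was 2229 to 2917 CPM in OTUB1_KD and 329 to 340.4 CPM in NC, and 1484 to 1839 CPM in SFD@M and 255 to 267 CPM in Blank. In both pairs 7 of the 8 rose. Lum fell, with means of 33.7 CPM in OTUB1_KD and 111 CPM in NC, and 15.2 CPM in SFD@M and 58.8 CPM in Blank. NC and Blank are called the tumour-cell libraries below. In these bulk samples, fewer cells of a type and less RNA per cell cannot be told apart.

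Of the 10 genes, Cdkn2b and Cdkn1c were absent or nearly absent from the tumour-cell libraries and present in all of the others, and Cdkn2a had 0 counts in the tumour-cell libraries and 0 to 17 in the others. In OTUB1_KD against NC, these 3 stood higher without overlap, 5 stood lower (Cdkn2c, Cdkn2d, Cdkn1b, Ccnd1 and Cdk4) and Ccnd2 and Ccnd3 overlapped. In SFD@M against Blank, 3 genes stood higher without overlap (Cdkn2b, Cdkn1b and Cdkn1c), 5 stood lower (Cdkn2c, Cdkn2d, Ccnd1, Ccnd2 and Cdk4) and 2 overlapped (Cdkn2a and Ccnd3). Across all genes tested, 78.2% did not overlap between OTUB1_KD and NC (45.6% higher, 32.6% lower), and 90.2% did not overlap between SFD@M and Blank (51.3% higher, 38.9% lower). By the adjusted p of edgeR, 65.7% of all genes tested passed between OTUB1_KD and NC and 88.1% between SFD@M and Blank. Since the genes were selected on these contrasts, their differences in both are given as descriptions without a test. Fold changes are from edgeR fits scaled by the trimmed mean of M values, where the median over all genes tested was 0.16 (log2) in OTUB1_KD against NC and 0.23 in SFD@M against Blank, against -0.02 and -0.03 on the log2(TPM + 1) scale (TPM, abundance per transcript length). Fold changes of the members are therefore also given relative to that median.

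**Figure D1:**
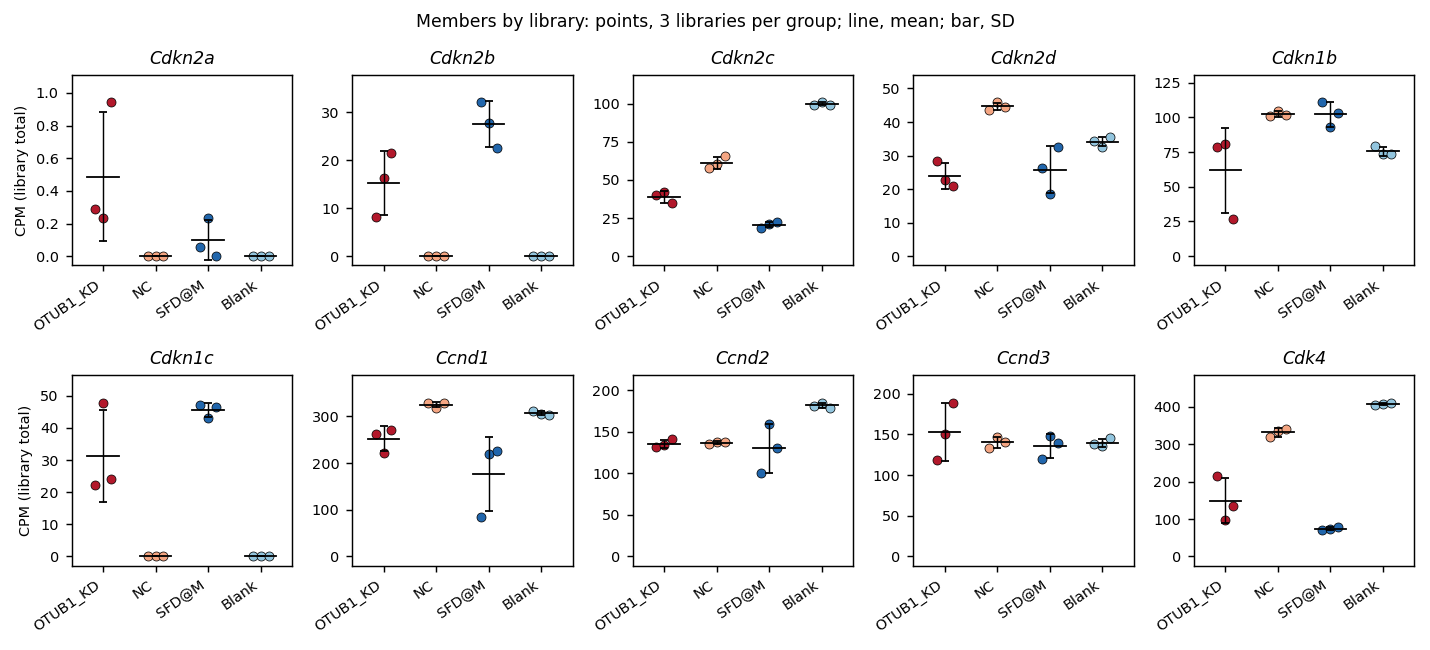
Each panel plots one gene, with CPM on the vertical axis and a point for each library, grouped as OTUB1_KD, NC, SFD@M and Blank, with the group mean as a line and its SD as a bar. Cdkn2a and Cdkn2b had 0 counts in all 6 NC and Blank libraries, whereas Cdk4 was at 96.2 to 214 CPM in OTUB1_KD and 318 to 341 CPM in NC, and at 70.3 to 78.1 CPM in SFD@M and 404 to 411 CPM in Blank.

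Cdkn2a encodes p16INK4a and, from an upstream start, p19ARF, which stabilises p53. Its counts were 5, 4 and 17 in OTUB1_KD and 0 in each NC library, and 1, 4 and 0 in SFD@M and 0 in each Blank library. Cdkn2a was thus at or near the detection limit everywhere and undetected in the tumour-cell libraries, where 3 counts over the group would correspond to 0.0603 CPM in NC and 0.0581 CPM in Blank. Its summed level was 8.17 times the NC limit in OTUB1_KD and 1.69 times the Blank limit in SFD@M. These ratios leave out the counting error of OTUB1_KD and SFD@M. The counting intervals of OTUB1_KD (0.322 to 0.721 CPM) and NC (0 to 0.0741 CPM) lay apart. Those of SFD@M (0.0318 to 0.229 CPM) and Blank (0 to 0.0715 CPM) overlapped, so no rise is shown in SFD@M. Cdkn2a did not pass the filter on low counts in any comparison. Transcript TPM were assigned to both of its starts, by dividing these few reads between transcripts that share their later exons. The transcript from the upstream start had 0.610, 0 and 1.23 TPM in OTUB1_KD and 0.120, 0.490 and 0 TPM in SFD@M, and the downstream transcript had 0, 0.510 and 0.650 TPM in OTUB1_KD and 0 TPM in SFD@M.

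Cdkn2b encodes p15INK4b, a CDK4 and CDK6 inhibitor known as a target of TGF-beta signalling. Its counts were 144, 282 and 388 in OTUB1_KD and 0 in each NC library, and 547, 473 and 383 in SFD@M and 0 in each Blank library. All 6 libraries rich in lung markers held Cdkn2b at 8.23 to 32.1 CPM, and no tumour-cell library held a read. Set against a limit of 3 counts over NC or Blank, its summed level was 256 times as high in OTUB1_KD and 473 times as high in SFD@M. The lowest value was that of OTUB1_KD library 1, at 0.505 of the next lowest OTUB1_KD library, and that library also had the lowest alveolar sum of its group (10715 CPM) and the highest sum of dividing-cell markers (1121 CPM); their part in the result was not tested. Cdkn2b shares part of its locus with the long noncoding RNA gene Gm12610 in RefSeq. The labels do not say how strand was handled. Only the spans of the genes were compared, and whether they share exons was not checked. Reads from any shared exon may not be told apart. Spans overlap likewise for Ccnd1 with LTO1, Ccnd2 with 9330179D12Rik, Ccnd3 with Bysl and Gm41590, and Cdk4 with Tspan31.

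The Cdkn2b promoter is shown because this gene separates the libraries with and without reads. The sequence runs from 250 bases before to 50 bases after the RefSeq start, at chr4:89310983-89311282 on the minus strand of GRCm38.p6, with a GC box (GGGCGG, searched on both strands) in capitals.
Cdkn2b: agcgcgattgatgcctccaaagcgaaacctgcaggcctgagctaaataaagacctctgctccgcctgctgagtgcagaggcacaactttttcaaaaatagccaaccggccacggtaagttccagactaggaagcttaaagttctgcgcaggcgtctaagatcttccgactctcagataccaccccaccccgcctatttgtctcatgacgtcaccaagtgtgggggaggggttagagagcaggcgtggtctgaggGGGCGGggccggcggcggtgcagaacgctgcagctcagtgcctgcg
One such GC box or more lies in 35.7% of the 32851 RefSeq promoter windows of the same length, and the match is a description of the letters only.

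The genes next to the pair show how much of the neighbourhood was read. On chromosome 4 the order of protein-coding genes in RefSeq is Ifna4, Ifna1, Ifne, Mtap, Cdkn2a, Cdkn2b, Dmrta1, Zfp352, Elavl2 and Izumo3. No entry was found under the symbols Ifna4, Ifna1 and Izumo3. Mtap, a methionine salvage enzyme often lost together with the pair in tumours, had 128, 22.9 and 51.9 CPM in OTUB1_KD and 302, 289 and 281 CPM in NC, and 17.2, 20.2 and 20.6 CPM in SFD@M and 277, 285 and 273 CPM in Blank. Mtap therefore stood highest in the same tumour-cell libraries in which Cdkn2a and Cdkn2b had 0 counts. It fell by 2.17 ± 0.57 on the log2 scale in OTUB1_KD against NC (adjusted p = 0.0136, edgeR) and by 3.89 ± 0.08 in SFD@M against Blank (adjusted p = 1.4e-08, edgeR). On the other side, Dmrta1, Zfp352 and Elavl2 had between 0 and 5 counts in every library, as did Ifne, too few to compare.

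**Figure D2:**
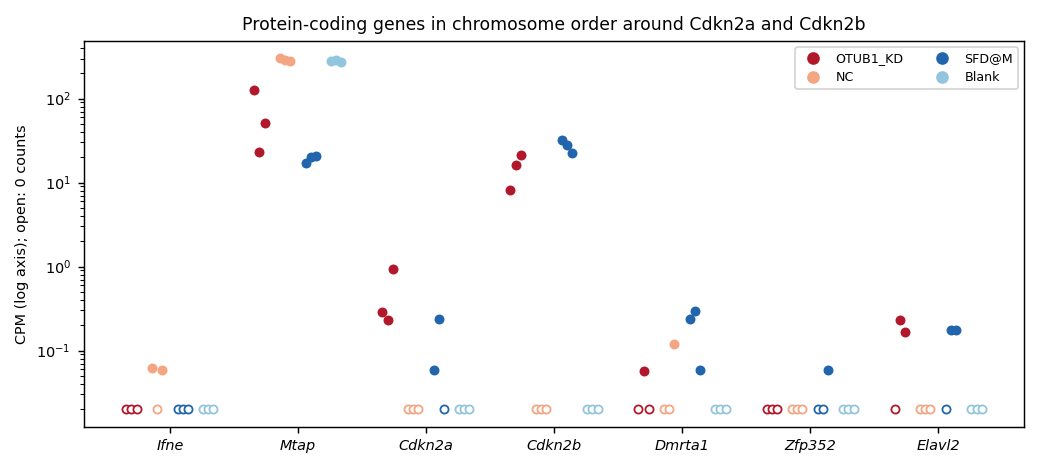
Each point is the CPM of 1 library on a log axis, coloured by group, for genes in chromosomal order around Cdkn2a and Cdkn2b, with open points at the foot for libraries with 0 counts. Mtap was read at 273 to 302 CPM in the 6 NC and Blank libraries, in which its neighbours Cdkn2a and Cdkn2b had no count.

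Cdkn2c encodes p18INK4c, an E2F-responsive INK4 inhibitor of many dividing cells. It had 40.1, 42.0 and 34.6 CPM in OTUB1_KD and 58.0, 60.4 and 65.6 CPM in NC, and 18.8, 21.2 and 22.1 CPM in SFD@M and 99.5, 101 and 99.1 CPM in Blank. The groups did not overlap in either pair. The log2 fold change was -0.73 ± 0.14 (SE) in OTUB1_KD against NC, or -0.89 relative to the median of all genes, and -2.31 ± 0.07 in SFD@M against Blank, or -2.54 relative to that median. Its direction was thus opposite to that of Cdkn2b in both pairs.

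Both RefSeq starts of Cdkn2c are shown because transcripts with an upstream and a downstream start were quantified apart. GENCODE, another gene annotation, starts the upstream transcript at 109667189, outside the upstream window, whose RefSeq start is 109666756. The upstream window therefore need not be the promoter of that transcript. The downstream start, 109665372, is the same in both. The windows lie at chr4:109666707-109667006 for the upstream start and chr4:109665323-109665622 for the downstream start, both on the minus strand of GRCm38.p6; capitals mark GC boxes (GGGCGG) and an E-box (CACGTG), the word bound by MYC and related factors, each searched on both strands.
Cdkn2c upstream: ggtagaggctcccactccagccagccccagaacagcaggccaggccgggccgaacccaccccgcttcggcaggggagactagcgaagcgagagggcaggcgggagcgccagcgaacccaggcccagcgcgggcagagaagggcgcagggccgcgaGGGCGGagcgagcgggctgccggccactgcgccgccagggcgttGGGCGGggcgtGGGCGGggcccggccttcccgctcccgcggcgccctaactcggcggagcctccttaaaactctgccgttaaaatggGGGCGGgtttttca
Cdkn2c downstream: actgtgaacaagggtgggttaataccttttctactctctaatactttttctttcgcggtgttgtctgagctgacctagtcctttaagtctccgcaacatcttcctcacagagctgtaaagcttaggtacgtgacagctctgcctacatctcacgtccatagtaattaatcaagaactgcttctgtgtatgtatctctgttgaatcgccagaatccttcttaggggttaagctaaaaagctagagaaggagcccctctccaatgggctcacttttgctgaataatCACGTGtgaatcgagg
The upstream window has 4 GC boxes, 33 CG dinucleotides and 73.3% G or C, and the downstream window has an E-box, no GC box, 8 CG dinucleotides and 44.0% G or C. At least 3 GC boxes lie in 10.7% of all windows, and an E-box in 7.15%.

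The upstream transcript had 18.0, 11.1 and 11.1 TPM in OTUB1_KD and 31.8, 34.5 and 34.4 TPM in NC, and 3.22, 4.84 and 4.90 TPM in SFD@M and 62.8, 59.7 and 60.7 TPM in Blank. The downstream transcript had 28.0, 40.1 and 30.7 TPM in OTUB1_KD and 42.0, 40.6 and 50.3 TPM in NC, and 22.0, 24.2 and 23.8 TPM in SFD@M and 59.1, 68.8 and 62.5 TPM in Blank. The upstream transcript was the more depleted of the pair. Its share of Cdkn2c TPM was 39.1%, 21.6% and 26.5% in OTUB1_KD and 43.1%, 46.0% and 40.6% in NC, and 12.8%, 16.7% and 17.1% in SFD@M and 51.5%, 46.5% and 49.3% in Blank. In SFD@M against OTUB1_KD, a contrast that was not used to choose the gene although the libraries of both groups were, the share averaged 15.5% ± 2.38 in SFD@M and 29.1% ± 9.03 in OTUB1_KD (SD, n = 3 each), a difference of -13.6 points (two-sided exact permutation p = 0.10, the smallest that 3 against 3 allows). In Blank against NC, likewise, it averaged 49.1% ± 2.54 in Blank and 43.2% ± 2.68 in NC (SD, n = 3 each), a difference of 5.87 points (two-sided exact permutation p = 0.10). Transcript TPM are estimates that divide reads common to both transcripts.

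**Figure D3:**
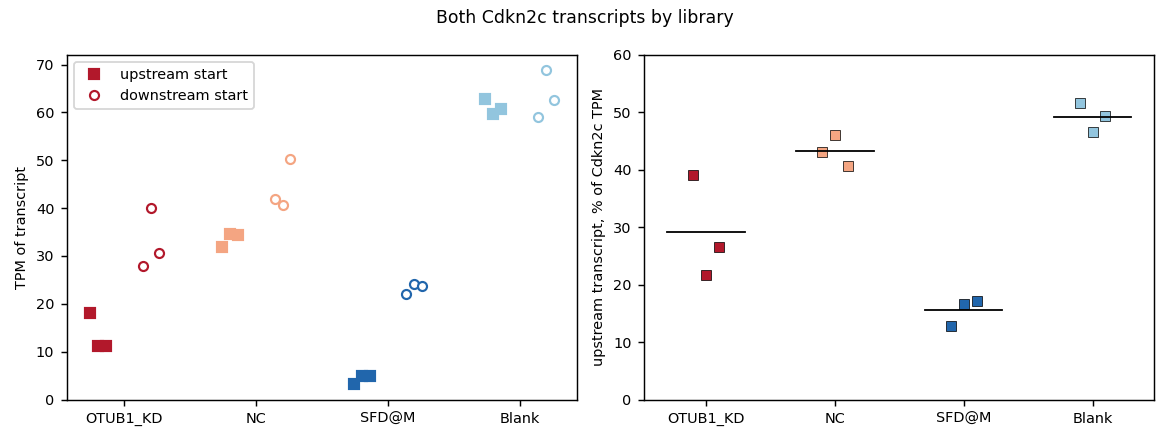
TPM of the Cdkn2c transcripts with the upstream and the downstream start are plotted per library and group. The upstream transcript took 12.8% to 17.1% of Cdkn2c TPM in SFD@M and 46.5% to 51.5% in Blank.

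Cdkn2d encodes p19INK4d, a further INK4 inhibitor of CDK4 and CDK6. It had 28.4, 22.6 and 20.8 CPM in OTUB1_KD and 43.7, 45.9 and 44.5 CPM in NC, and 26.4, 18.5 and 32.6 CPM in SFD@M and 34.3, 32.7 and 35.5 CPM in Blank. The OTUB1_KD values lay well apart from those of NC, whereas SFD@M library 3, at 32.6 CPM, lay just under the lowest Blank library, at 32.7 CPM. The log2 fold change was -0.97 ± 0.16 in OTUB1_KD against NC, or -1.13 relative to the median, and -0.44 ± 0.18 in SFD@M against Blank, or -0.67 relative to the median.

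Within the INK4 family, per-length levels in TPM summed to 96.9 ± 1.43 in OTUB1_KD and 149 ± 5.96 in NC, and to 93.3 ± 4.72 in SFD@M and 180.1 ± 2.09 in Blank (SD, n = 3 each). Cdkn2b supplied 18.4% ± 7.82 of that sum in OTUB1_KD and 0% in NC, and 34.3% ± 6.53 in SFD@M and 0% in Blank. Cdkn2c supplied 47.8% ± 4.17 in OTUB1_KD and 52.3% ± 2.06 in NC, and 29.7% ± 3.28 in SFD@M and 69.1% ± 1.41 in Blank. The tumour-cell libraries thus held INK4 transcripts almost wholly as Cdkn2c and Cdkn2d, the SFD@M libraries as Cdkn2b, Cdkn2c and Cdkn2d in similar parts. Set against Cdk4, the INK4 sum was 0.641 ± 0.279 per Cdk4 TPM in OTUB1_KD and 0.325 ± 0.00558 in NC, and 1.11 ± 0.0939 in SFD@M and 0.310 ± 0.00271 in Blank.

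**Figure D4:**
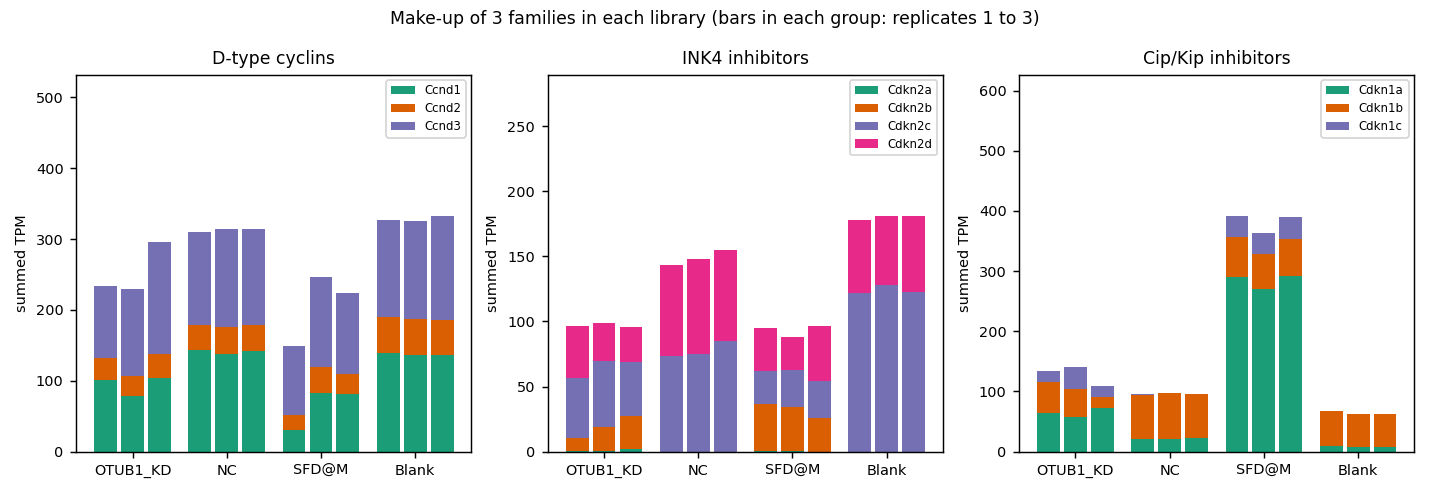
Stacked bars give the summed TPM of the D-type cyclins, the INK4 inhibitors and the Cip/Kip inhibitors in each library, coloured by gene, with groups in the order OTUB1_KD, NC, SFD@M and Blank. Cdkn2b took 34.3% of the INK4 sum on average in SFD@M and 0% in Blank, and Cdkn1b took 16.1% of the Cip/Kip sum in SFD@M and 88.0% in Blank.

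Among the Cip/Kip genes, Cdkn1b encodes p27, which restrains CDK2 and helps assemble cyclin D-CDK4 complexes. It had 78.8, 80.7 and 26.7 CPM in OTUB1_KD and 101, 105 and 102 CPM in NC, and 111, 93.1 and 103 CPM in SFD@M and 79.6, 73.5 and 73.6 CPM in Blank. It was lower in every OTUB1_KD library and higher in every SFD@M library. The log2 fold change was -0.80 ± 0.38 in OTUB1_KD against NC, or -0.96 relative to the median, and -0.45 without OTUB1_KD library 3. That library held Cdkn1b at 0.338 of the lower of the other 2, a ratio reached by 59 of 11157 genes (0.529%). The change was 0.40 ± 0.07 in SFD@M against Blank, or 0.17 relative to the median of all genes, and 0.12 on the log2(TPM + 1) scale.

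Cdkn1c encodes p57, an imprinted inhibitor typical of cells that have left the cycle and of several embryonic and stromal tissues. Its counts were 387, 828 and 435 in OTUB1_KD and 4, 2 and 1 in NC, and 800, 730 and 790 in SFD@M and 1, 0 and 0 in Blank. It was nearly absent from the tumour-cell libraries, where 8 reads in all were counted. The ratio of summed counts, scaled to library totals, was 222 (95% counting interval 108 to 553) for OTUB1_KD over NC and 2347 (421 to 92751) for SFD@M over Blank. Its imprinted neighbours were read too. Kcnq1 rose by 5.94 ± 0.56 and Igf2, a growth factor, by 2.84 ± 0.43 (log2) in OTUB1_KD against NC (adjusted p = 1.6e-04 and 0.00124, edgeR), and by 9.05 ± 0.34 and 5.76 ± 0.41 in SFD@M against Blank (adjusted p = 1.4e-07 and 4.8e-06, edgeR). The size of these rises rests on few reads. Kcnq1 had 5, 7 and 3 counts in NC and 0, 1 and 1 in Blank, too few to test Blank against NC. Igf2 had 21, 10 and 19 counts in NC and 6, 3 and 3 in Blank. Nap1l4, a histone chaperone, did not pass, with 0.25 ± 0.13 in OTUB1_KD against NC (adjusted p = 0.134, edgeR) and 0.05 ± 0.04 in SFD@M against Blank (adjusted p = 0.296, edgeR). No entry was found under the symbols Kcnq1ot1 and H19, so neither was read.

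Cdkn1a, the p53 target p21 and the Cip/Kip gene outside the list, gives the contrast. It had 78.0, 74.7 and 90.1 CPM in OTUB1_KD and 22.7, 21.6 and 23.7 CPM in NC, and 379, 332 and 376 CPM in SFD@M and 8.89, 7.54 and 7.17 CPM in Blank. Cdkn1a rose by 1.77 ± 0.15 (log2) in OTUB1_KD against NC (adjusted p = 9.9e-05, edgeR) and by 5.49 ± 0.10 in SFD@M against Blank (adjusted p = 8.6e-09, edgeR). It also passed between the groups rich in lung markers, with 2.17 ± 0.20 in SFD@M against OTUB1_KD (adjusted p = 0.0327, edgeR). In that fit 2 of 14914 genes passed, and 0 to 1875 did when each library was left out. The Cdkn1a call was thus lost in the fits with 0 calls. Within the Cip/Kip sum, Cdkn1b supplied 28.9% ± 11.9 in OTUB1_KD and 77.5% ± 1.14 in NC, and 16.1% ± 0.471 in SFD@M and 88.0% ± 0.779 in Blank (SD, n = 3 each). Cdkn1a supplied 52.0% ± 13.5 in OTUB1_KD and 22.4% ± 1.14 in NC, and 74.6% ± 0.397 in SFD@M and 12.0% ± 0.731 in Blank.

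Among the D-type cyclins, Ccnd1 stood lower without overlap in both pairs, Ccnd2 did so in SFD@M against Blank, and Ccnd3 overlapped in both. Ccnd1, the cyclin most responsive to growth factor signalling, had 263, 221 and 271 CPM in OTUB1_KD and 329.5, 318 and 328 CPM in NC, and 84.2, 219 and 225 CPM in SFD@M and 311, 305 and 303 CPM in Blank. SFD@M library 1 lay far below the rest of its group. The log2 fold change was -0.44 ± 0.17 in OTUB1_KD against NC, or -0.60 relative to the median. It was -0.83 ± 0.33 in SFD@M against Blank, or -1.07 relative to the median, and -0.48 without SFD@M library 1. That library held Ccnd1 at 0.384 of the lower of the other 2, as low a ratio as in 17 of 10803 genes (0.157%).

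Ccnd2 and Ccnd3 encode the other D-type cyclins, both prominent in blood cells. Ccnd2 had 132, 134 and 141 CPM in OTUB1_KD and 135, 138 and 137 CPM in NC, and 99.8, 159.6 and 130.1 CPM in SFD@M and 181, 185 and 179 CPM in Blank. It overlapped between OTUB1_KD and NC, and every SFD@M library lay below every Blank library. Its log2 fold change was -0.07 ± 0.13 in OTUB1_KD against NC, or -0.23 relative to the median, and -0.52 ± 0.16 in SFD@M against Blank, or -0.75 relative to the median. Ccnd3 had 118, 150.0 and 189 CPM in OTUB1_KD and 133, 147 and 140.1 CPM in NC, and 120.1, 148 and 139 CPM in SFD@M and 138, 136 and 145 CPM in Blank. Ccnd3 overlapped in both pairs. Its log2 fold change was 0.06 ± 0.21 in OTUB1_KD against NC and -0.08 ± 0.08 in SFD@M against Blank; relative to the median it was -0.10 and -0.31, so the sign of the first depends on the scaling. In TPM, Ccnd1 supplied 37.5% ± 4.89 of the D-type cyclin sum in OTUB1_KD and 45.1% ± 1.16 in NC, and 29.8% ± 8.67 in SFD@M and 41.7% ± 0.823 in Blank (SD, n = 3 each).

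Cdk4, the kinase that the D-type cyclins activate and INK4 proteins bind, had 214, 96.2 and 135 CPM in OTUB1_KD and 318, 336 and 341 CPM in NC, and 70.3, 72.7 and 78.1 CPM in SFD@M and 404, 407 and 411 CPM in Blank. All OTUB1_KD libraries lay below all NC libraries, and all SFD@M libraries below all Blank libraries. The log2 fold change was -1.23 ± 0.30 in OTUB1_KD against NC, or -1.39 relative to the median, and -2.50 ± 0.06 in SFD@M against Blank, or -2.74 relative to the median. Within OTUB1_KD, library 1 held the most Cdk4 and also the most Mki67, a marker of dividing cells (208 CPM, against 72.1 and 47.7 CPM in libraries 2 and 3); the part of dividing cells in the result was not tested. The D-type cyclin sum per Cdk4 TPM was 1.66 ± 0.664 in OTUB1_KD and 0.684 ± 0.0194 in NC, and 2.43 ± 0.493 in SFD@M and 0.566 ± 0.00286 in Blank (SD, n = 3 each).

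The Cdk4 promoter is shown because Cdk4 had the lowest ratio among the members in both pairs and its window holds E-boxes, the words bound by MYC, a known activator of Cdk4. It lies at chr10:127063285-127063584 on the plus strand of GRCm38.p6, with 4 E-boxes (CACGTG) and the reverse complement of 3 GC boxes (GGGCGG) in capitals, a pair of which overlap.
Cdk4: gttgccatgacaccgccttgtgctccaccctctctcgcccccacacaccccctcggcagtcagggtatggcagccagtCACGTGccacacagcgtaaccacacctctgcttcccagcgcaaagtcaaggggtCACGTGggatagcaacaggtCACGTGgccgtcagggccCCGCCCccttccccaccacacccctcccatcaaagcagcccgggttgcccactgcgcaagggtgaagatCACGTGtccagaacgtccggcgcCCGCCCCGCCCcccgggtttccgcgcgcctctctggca
At least 3 E-boxes lie in 29 of the 32851 windows (0.0883%). Since the window was shown partly for its E-boxes, this share is a description of the letters only. RefSeq windows were given for 7 of the 10 genes; Cdkn1c, Ccnd1 and Ccnd2 have none here. No E2F word (TTTCCCGC, TTTCGCGC, TTTGCCGC or TTTGGCGC, both strands) lay in the windows printed, and 1 lay in the window of the upstream Cdkn2a start, the only one among the windows of the 7 genes; 2.26% of all windows hold one.

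**Figure D5:**
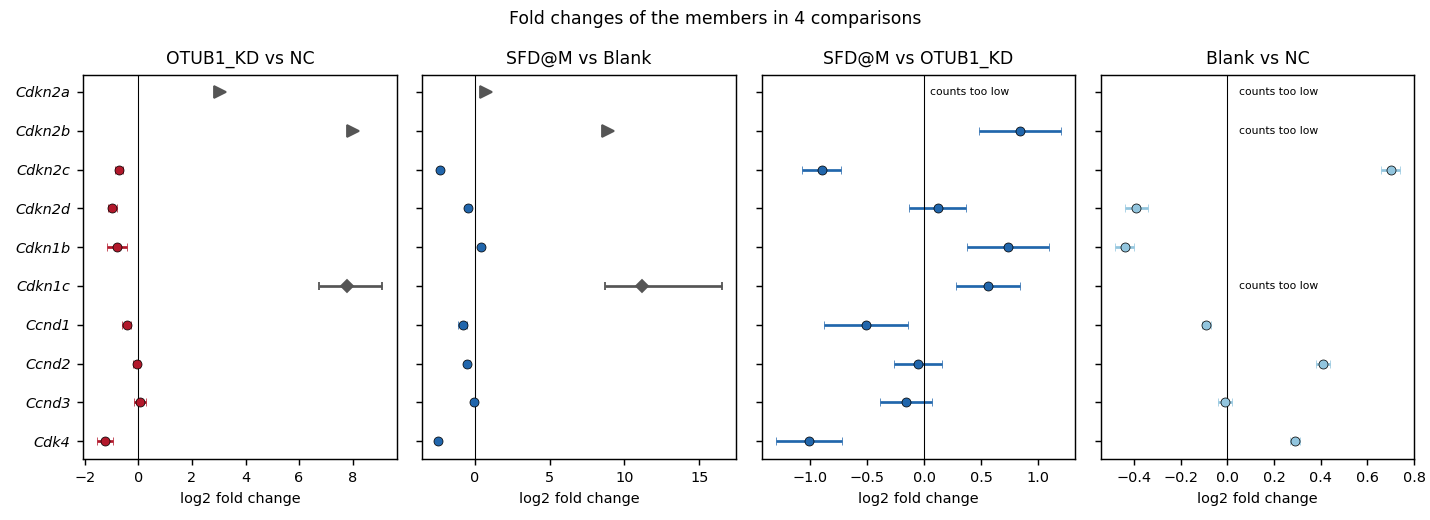
Log2 fold changes (horizontal axis) of the members are plotted with their SE for OTUB1_KD against NC, SFD@M against Blank, SFD@M against OTUB1_KD and Blank against NC. Arrowheads set genes at 0 counts in NC or Blank against 3 counts over that group, without the counting error of the other group. Diamonds are ratios of summed counts with 95% counting intervals, and each panel has its own axis range. Cdk4 was lowest of all, at -1.23 and -2.50, in the pairs OTUB1_KD against NC and SFD@M against Blank.

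The comparison between the lung-marker-rich groups was not used to choose the genes, so it was tested. It shares libraries with the pairs above. In SFD@M against OTUB1_KD, 0 of the 9 members tested passed an adjusted p of 0.05 in edgeR, where 0.0134% of the 14914 genes tested did; at an unadjusted p under 0.05 there were 3 of 9, where 19.9% of all genes were, and DESeq2 called 2 of 9 (Cdk4 and Cdkn2c), where it called 9.20% of 14907 genes. Without overlap, Cdkn2b and Cdkn1b stood higher and Cdkn2c and Cdk4 lower, 4 of 10, where 28.7% of all genes did not overlap. Cdkn2c was -0.90 ± 0.17 (log2; adjusted p = 0.0848, edgeR), Cdk4 was -1.01 ± 0.29 (adjusted p = 0.137, edgeR) and Cdkn2b was 0.84 ± 0.36 (adjusted p = 0.244, edgeR). Without OTUB1_KD library 2, Cdkn2c, Cdkn1c and Cdk4 passed, with adjusted p = 0.0318, 0.0227 and 0.0224 (edgeR), where 12.4% of 15133 genes then passed. The other members lay between -0.51 for Ccnd1 and 0.74 for Cdkn1b, with adjusted p of 0.299 or more (edgeR). These intervals are wide, and a p that misses the threshold does not show that the groups hold the same levels. In simulated data drawn as in this pair, with few genes changed, edgeR called 23% of the genes changed 2-fold.

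Between the tumour-cell groups, Blank against NC, the spread was much smaller. Pairs of libraries within a group differed by little more than counting error there, with a chi-square per degree of freedom over genes of 1.3 to 1.53 in Blank and 1.37 to 1.95 in NC, where 1 is counting error alone, against 16.2 to 30.6 in SFD@M and 93.4 to 154 in OTUB1_KD. The very small p-values of this contrast rest on that spread, which may be technical. Of the 7 members tested, 6 passed in edgeR, 3 higher and 3 lower, where 74.3% of the 12087 genes tested did (37.0% higher, 37.2% lower), so the count is near the background. Cdkn2c rose by 0.70 ± 0.04 (log2; adjusted p = 3.8e-28), Ccnd2 by 0.41 ± 0.03 (adjusted p = 1.2e-22) and Cdk4 by 0.29 ± 0.02 (adjusted p = 5.8e-18, edgeR). Cdkn1b fell by 0.44 ± 0.04 (adjusted p = 6.2e-19), Cdkn2d by 0.39 ± 0.05 (adjusted p = 9.3e-11) and Ccnd1 by 0.09 ± 0.02 (adjusted p = 0.00106, edgeR). The Ccnd1 difference was -0.04 on the log2(TPM + 1) scale and did not pass there (adjusted p = 0.159, limma). Ccnd3 was -0.01 ± 0.03 (adjusted p = 0.857, edgeR). Cdkn2a and Cdkn2b had no count in either group, and Cdkn1c had 1 count in Blank and 7 in NC. Libraries did not overlap for 3 genes that stood higher and 4 that stood lower in Blank, Cdkn1c included, where 75.3% of all genes did not overlap (37.7% higher, 37.6% lower). For Cdkn1c, NC library 3 and Blank library 1 each held 1 count (0.0593 and 0.0581 CPM). They are apart only through their library totals, so nothing is read from that separation.

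The change in OTUB1_KD against NC minus that in SFD@M against Blank was estimated in the fit of all 12 libraries, in which 23.1% of the 15304 genes tested passed. The genes were selected on both of its parts, so their values are given as a description without a test. It was 1.55 ± 0.14 (log2, SE) for Cdkn2c and 1.25 ± 0.33 for Cdk4, whose estimated reduction was the smaller in OTUB1_KD against NC. It was -1.23 ± 0.41 for Cdkn1b and -3.08 ± 1.21 for Cdkn1c. The remaining 4, Cdkn2d, Ccnd1, Ccnd2 and Ccnd3, lay between -0.56 and 0.42, and Cdkn2b could not be estimated because its 6 tumour-cell libraries hold no count.

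By level, in CPM averaged over each group, Cdkn2c and Cdk4 took the order Blank, NC, OTUB1_KD, SFD@M, and no neighbouring groups overlapped. Cdkn2b took the order SFD@M (27.5 CPM) then OTUB1_KD (15.4 CPM), then the tumour-cell groups at 0. Cdkn1c stood at 45.5 CPM in SFD@M and 31.4 CPM in OTUB1_KD, which overlapped. Ccnd3 means lay between 136 CPM in SFD@M and 152 CPM in OTUB1_KD with every neighbouring pair overlapping.

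The genes that act with the members were read from 4 lists chosen with earlier results known. Most genes named from them were the called genes with the smallest p in a pair. Their p-values are thus selected from these data and add no test of a list. Of 12 genes of the G1/S kinase machinery, 11 fell and none rose in OTUB1_KD against NC (median log2 fold change -1.87, against 0.16 over all genes), where 25.8% of all genes tested fell and 39.9% rose. All 12 fell in SFD@M against Blank (median -3.45, against 0.23 over all genes), where 38.7% fell and 49.5% rose. Ccne1, the cyclin that activates CDK2, averaged 7.43 ± 3.22 CPM in OTUB1_KD and 26.7 ± 1.27 CPM in NC, a log2 fold change of -1.90 ± 0.36 (adjusted p = 0.00323, edgeR). Skp2, the F-box protein that marks p27 for destruction, averaged 5.08 ± 0.840 CPM in SFD@M and 103 ± 1.51 CPM in Blank, with -4.38 ± 0.11 (adjusted p = 2.4e-08, edgeR). Mnat1, part of the CDK-activating kinase, gave -2.03 ± 0.41 in OTUB1_KD against NC (adjusted p = 0.00439, edgeR) and -2.21 ± 0.05 in SFD@M against Blank (adjusted p = 1.8e-08, edgeR). Cdc25a, the phosphatase that activates CDK2, fell by 1.54 ± 0.30 in OTUB1_KD against NC (adjusted p = 0.00384, edgeR), and Cks1b, the SKP2 cofactor, by 5.19 ± 0.15 in SFD@M against Blank (adjusted p = 5.6e-08, edgeR). The exception in OTUB1_KD was Cdk6, the partner kinase of the D-type cyclins, with -0.00 ± 0.22 (adjusted p = 0.990, edgeR), although it fell by 1.09 ± 0.19 in SFD@M against Blank (adjusted p = 9.8e-04, edgeR).

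Of 18 RB and E2F genes, 1 rose and 11 fell in OTUB1_KD against NC, and 6 rose and 12 fell in SFD@M against Blank (medians -1.05 and -1.85, against 0.16 and 0.23 over all genes). The 12 of 18 that passed in OTUB1_KD against NC are near the 65.7% of all genes that did; of all genes, 25.8% fell and 39.9% rose there, and 38.7% fell and 49.5% rose in SFD@M against Blank. The riser in OTUB1_KD was E2f2, an E2F activator, at 0.79 ± 0.14 (adjusted p = 0.00262, edgeR). E2f6, an E2F repressor, fell by 2.07 ± 0.20 in OTUB1_KD against NC (adjusted p = 1.7e-04, edgeR). Mybl2, an activator of late cell cycle genes, averaged 3.92 ± 0.609 CPM in SFD@M and 81.1 ± 3.42 CPM in Blank (-4.40 ± 0.11, adjusted p = 2.3e-08, edgeR). Lin54, the DNA-binding subunit of the DREAM complex, fell by 1.59 ± 0.28 in OTUB1_KD against NC (adjusted p = 0.00261, edgeR). E2f3, an E2F activator, and E2f8, an atypical E2F repressor, fell in SFD@M against Blank, with log2 fold changes of -3.10 ± 0.08 and -5.13 ± 0.14 (adjusted p = 2.7e-08 and 3.5e-08, edgeR).

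The list of 14 genes read for Polycomb silencing holds 13 Polycomb genes and Kdm6b, an H3K27 demethylase that opposes it. Kdm6b was set apart after its values were seen. Of the 13, 1 rose and 8 fell in OTUB1_KD against NC, where 39.9% of all genes rose and 25.8% fell. In SFD@M against Blank, 2 rose and 9 fell, where 49.5% of all genes rose and 38.7% fell. Medians were -0.66 and -0.97. Counted in either direction, the calls are near the 65.7% and 88.1% of all genes that passed. The risers were Ring1 in both pairs and Ezh1 in SFD@M against Blank, where Kdm6b also rose, by 1.04 ± 0.06 (adjusted p = 1.8e-06, edgeR). Ezh2, the H3K27 methyltransferase, averaged 29.5 ± 10.8 CPM in OTUB1_KD and 76.1 ± 1.08 CPM in NC (-1.44 ± 0.25, adjusted p = 0.00259, edgeR), and 15.4 ± 0.825 CPM in SFD@M and 111 ± 2.64 CPM in Blank (-2.88 ± 0.06, adjusted p = 1.7e-08, edgeR). Rnf2, the H2A ubiquitin ligase of the complex, fell by 2.16 ± 0.33 in OTUB1_KD against NC (adjusted p = 0.00139, edgeR) and by 1.62 ± 0.06 in SFD@M against Blank (adjusted p = 9.6e-08, edgeR). Cbx2, a reader of H3K27 methylation, fell by 1.32 ± 0.18 in OTUB1_KD against NC (adjusted p = 6.6e-04, edgeR), and Suz12, a partner of EZH2, by 1.61 ± 0.06 in SFD@M against Blank (adjusted p = 1.0e-07, edgeR).

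Of 14 genes that turn over D-type cyclins and p27, 3 rose and 4 fell in OTUB1_KD against NC, and 3 rose and 9 fell in SFD@M against Blank (medians -0.30 and -0.22); with limma on log2(TPM + 1), 3 rose and 8 fell in OTUB1_KD against NC, where limma passed 70.2% of all genes. The edgeR counts, 7 of 14 and 12 of 14, do not stand above the 65.7% and 88.1% of all genes that passed. Cryab, a small heat shock protein and cofactor of the FBXO4 ligase for cyclin D1, rose by 4.39 ± 0.38 in OTUB1_KD against NC (adjusted p = 1.2e-04, edgeR) and by 4.48 ± 0.11 in SFD@M against Blank (adjusted p = 2.5e-08, edgeR). Fbxo4 itself rose by 1.21 ± 0.16 (adjusted p = 7.0e-04, edgeR) and Cul4a, a ubiquitin ligase scaffold, fell by 0.96 ± 0.19 (adjusted p = 0.00385, edgeR) in OTUB1_KD against NC. Cul4b, its paralogue, and Ddb1, their adaptor, fell in SFD@M against Blank, with log2 fold changes of -1.69 ± 0.05 and -1.46 ± 0.07 (adjusted p = 4.3e-08 and 3.7e-07, edgeR). Beside each list, dividing-cell markers moved beside the genes that fell (8 of 8 fell in both pairs); their part in these results was not tested.

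For each member that passed the filter in the 12-library fit, the 3 genes with the smallest root mean square difference in centred log2 CPM over the 12 libraries were taken from 14718 candidates. Cdk4 lay nearest to Pcna, the replication clamp and a dividing-cell marker (0.110 on the log2 scale), and Cdkn2c to Smo (0.201), H2az1 (0.214) and Lmnb2 (0.217). Siah1b (0.113) and Nup93 (0.118) came next for Cdk4. Ccnd3 lay nearest to Ost4 (0.0663), Cdkn1b to Fam126b (0.0824), Ccnd2 to Cdk5rap1 (0.10), Cdkn2d to Dhx40 (0.160) and Ccnd1 to Calr (0.206). Ost4 averaged 73.3 CPM in OTUB1_KD and 64.5 CPM in NC, and 62.6 CPM in SFD@M and 63.5 CPM in Blank, and Pcna 148 CPM in OTUB1_KD and 322 CPM in NC, and 85.6 CPM in SFD@M and 429 CPM in Blank. Cdkn2b, with 0 counts in 6 libraries, lay nearest to Ifnlr1 (0.225), and Cdkn1c lay no nearer than 0.403, to Prr15l. With a prior count of 2 in place of 0.5, none of the 3 nearest genes of Cdkn1c remained among its nearest 3, so its neighbours depend on that choice; the other genes named here remained.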

How the data were processed

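RNA from 12 mouse lung cancer samples was sequenced. Per the submitters' processing notes, reads were handled with Bowtie2 and RSEM 1.3.1 and the build GRCm39; DESeq2 1.4.5 is also named there. The authors deposited, per the file headers, an expected count (a read count that need not be whole), a normalized count, an FPKM and a TPM value for 70659 transcripts in each library. Strand handling is not given in the sources used here. The 24 per-sample columns of normalized counts and FPKM were not used. Here, the deposited expected counts were summed per Entrez gene and rounded, giving 19212 genes with totals of 16062806 to 18028828 per library, which sets counting precision; intervals and limits cover counting error only. Of these, 19155 had a symbol. The deposited TPM values were summed likewise.

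Genes were tested with edgeR 4.0.16 (R 4.3.3; robust quasi-likelihood test, filterByExpr, TMM scaling, Benjamini-Hochberg adjusted p below 0.05 over all genes tested), each pair of groups fitted alone and the difference of differences on all 12 libraries. DESeq2 1.42.0, limma 3.58.1 on log2(TPM + 1), other scaling, no filter, a replicate block and leaving out each library were alternatives. The fits were tested on simulated data in which few genes changed. With 14785 genes drawn as in OTUB1_KD against NC, edgeR called 6% of the genes changed 2-fold and 92% of those changed 4-fold. It called 106 genes there, 8 of them false, against 9721 in the data, so this recovery does not carry over to the real fit. Drawn as in SFD@M against Blank, it called 94% and 97%, and 25 of 216 calls were false. The data gave 13062 calls in that pair, so this recovery does not carry over either. Drawn as in SFD@M against OTUB1_KD, it called 23% and 85%, and 8 of 116 calls were false. The 10 genes and all lists were chosen with earlier results of these data known. Named besides them were Cdkn1a, the 3 called genes with the smallest p per list and pair, the 3 genes nearest in pattern to each member, the 4 protein-coding genes on each side of Cdkn2a and Cdkn2b, and imprinted genes beside Cdkn1c. Cdk6, Kdm6b, Ring1, Ezh1, Cd3e, Sftpd, Rtkn2, Hopx, Lamp3, Ager and Lum were named after their values were seen. Promoters are from RefSeq on GRCm38.p6, a build other than that of the counts.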

Additional observations from a re-analysis of the deposited data

Results flagged for a closer look

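The change in OTUB1_KD against NC minus that in SFD@M against Blank lay past the adjusted p threshold of the 12-library edgeR fit for Cdkn2c and Cdk4, where 23.1% of all genes tested did. The genes were selected on both pairs, so nothing is read from those calls and the values are a description. For Cdkn2c the difference between the changes was 1.55 ± 0.14 (log2, SE): Cdkn2c was at 34.6 to 42.0 CPM in OTUB1_KD and 58.0 to 65.6 CPM in NC, and at 18.8 to 22.1 CPM in SFD@M and 99.1 to 101 CPM in Blank. For Cdk4 it was 1.25 ± 0.33. Cdkn1b was lower in all 3 OTUB1_KD libraries than in all NC libraries and higher in all 3 SFD@M libraries than in all Blank libraries; the difference was -1.23 ± 0.41, -1.46 to -0.89 with each OTUB1_KD library left out in turn, and is not counted as tested. The summed markers of dividing cells also differed more between SFD@M (121 to 198 CPM) and Blank (3302 to 3368 CPM) than between OTUB1_KD (312 to 1121 CPM) and NC (3029 to 3121 CPM); their part in these differences was not tested.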

How the results depend on the processing

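The count of genes called in SFD@M against OTUB1_KD was the least stable. It was 2 in edgeR, 15 with no filter, 1372 in DESeq2, 10 with limma on log2(TPM + 1), and 0 to 1875 when each library was left out, the highest without OTUB1_KD library 2 and 0 without OTUB1_KD library 3, SFD@M library 2 or SFD@M library 3; the cause was not tested. The difference of differences called 3537 genes, and 2090 to 5523 with a library left out: 5523 without OTUB1_KD library 2, and 2090 to 2319 without any NC or Blank library or SFD@M library 2. Of its calls 46.5% were higher in edgeR and 59.6% with limma on log2(TPM + 1). In the turnover list, 7 genes passed in OTUB1_KD against NC in edgeR and 11 with limma on log2(TPM + 1). Leaving Kdm6b out of the Polycomb list, a choice made after seeing the data, moved its calls to 9 of 13 in OTUB1_KD against NC, against 9 of 14 with it, and to 11 of 13 in SFD@M against Blank, against 12 of 14.

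Near-zero fold changes that did not pass changed sign. In SFD@M against OTUB1_KD, leaving out a library gave -0.08 to 0.30 for Cdkn2d, -0.24 to 0.10 for Ccnd2 and -0.32 to 0.05 for Ccnd3. In Blank against NC, Ccnd3 was 0.02 with no filter, 0.06 with limma on log2(TPM + 1), and -0.04 to 0.03 with a library left out. Its difference of differences was -0.12 to 0.25 with a library left out. In the tests of members in Blank against NC, 71 of the alternative values kept direction and side of the threshold, 5 turned (all Ccnd3) and 1 lost its call (Ccnd1).

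Replicate numbers did not pair the samples: deviations of same-numbered libraries correlated at -0.256 to 0.0411. With the replicate number as a block, 7 genes were called in SFD@M against OTUB1_KD, 9362 in OTUB1_KD against NC, 13010 in SFD@M against Blank, 8947 in Blank against NC and 3016 for the difference of differences. At this depth Cdkn2a is the gene that counting limits most, with 26 counts summed over OTUB1_KD and 5 over SFD@M.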

Other observations

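Phlda2, an imprinted neighbour of Cdkn1c, averaged 0.265 ± 0.146 CPM in OTUB1_KD and 0.0198 ± 0.0342 CPM in NC, and 0.529 ± 0.118 CPM in SFD@M and 0 CPM in Blank (SD, n = 3 each), too low to test. Slc22a18, a further neighbour, rose by 2.38 ± 0.48 (log2) in OTUB1_KD against NC (adjusted p = 0.00467, edgeR) and by 4.17 ± 0.33 in SFD@M against Blank (adjusted p = 7.8e-06, edgeR), and Cd81 by 1.06 ± 0.24 (adjusted p = 0.00778, edgeR) and 1.04 ± 0.06 (adjusted p = 1.7e-06, edgeR). Slc22a18 was low in the tumour-cell libraries, with 19, 23 and 24 counts in NC and 10, 3 and 9 in Blank.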
